A study of Mus musculus with 6 samples.

Results

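The p53 pathway genes described here are 32 genes of mouse embryonic stem cells. Most are transcriptional targets of p53, and the rest are p53 itself and its regulators. The genes were chosen by name from knowledge of the pathway, with earlier results of these data known. Of these, 28 were measured on 1 array feature each that carries their symbol alone, among 22180 genes on 23521 such features. The other 4 were not analysed here: Gadd45a and Ddb2 lie on features shared with other symbols, and Trp53 itself and Bax matched no feature by symbol in the annotation used. The cells were R1, an established male line from the inner cell mass of 129X1 x 129S1 embryos, grown without feeders on gelatin with serum and the self-renewal cytokine LIF. The 3 untreated samples were compared with 3 samples given AA2G, a glucose conjugate of ascorbic acid (vitamin C), at 0.74 mM (250 µg/ml) for 3 days. All 6 RNA samples were hybridised singly to Affymetrix Mouse Gene 2.0 ST arrays. The labels call the samples of a group independent, but as all come from 1 cell line, p-values here measure the spread between its cultures.

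p53 is a transcription factor that is held at a low level by the ubiquitin ligase Mdm2 and is stabilised when DNA is damaged or growth is disturbed. It then switches on genes that halt the cell cycle, start apoptosis, aid DNA repair and adjust metabolism, together with Mdm2 and other genes that turn it off again. In mouse embryonic stem cells p53 can repress Nanog and so favour differentiation after damage. A p53 site in DNA consists of a pair of half-sites of 10 bases with a short spacer.

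With AA2G, Pml and Perp fell, and most other members had smaller negative values that did not pass the test. Pml, which builds nuclear bodies where p53 is modified, was at 61.2% of its untreated level, and Perp, an apoptosis gene that is also a component of desmosomes, at 62.1%. In a limma model over all features, these 2 of 28 members passed a Benjamini-Hochberg adjusted p of 0.05 as lower, against a background of 0.153% of features called lower, and 0 members passed as higher, against 0.608%. An unadjusted p under 0.05 was reached by 10 members in the lower direction (35.7%, against 5.06% of all features) and by 0 in the higher (4.66%). The 3 AA2G arrays all lay below the 3 untreated arrays for 13 members (46.4%, against 8.48% of all features) and all above for 0 (against 7.21%). A negative log2 fold change, AA2G minus untreated, was found for 23 of the 28 members and for 52.3% of all features. The median was -0.19 for the members and -0.01 for all features tested. Without Perp and Pml, 21 of 26 values were negative, and the median of all 26 was -0.17. As the members were chosen with earlier results known, these shares and medians describe the list and are no test of the pathway. In these whole-culture RNA samples, a lower level per cell and fewer cells that express a gene cannot be told apart.

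**Figure D1:**
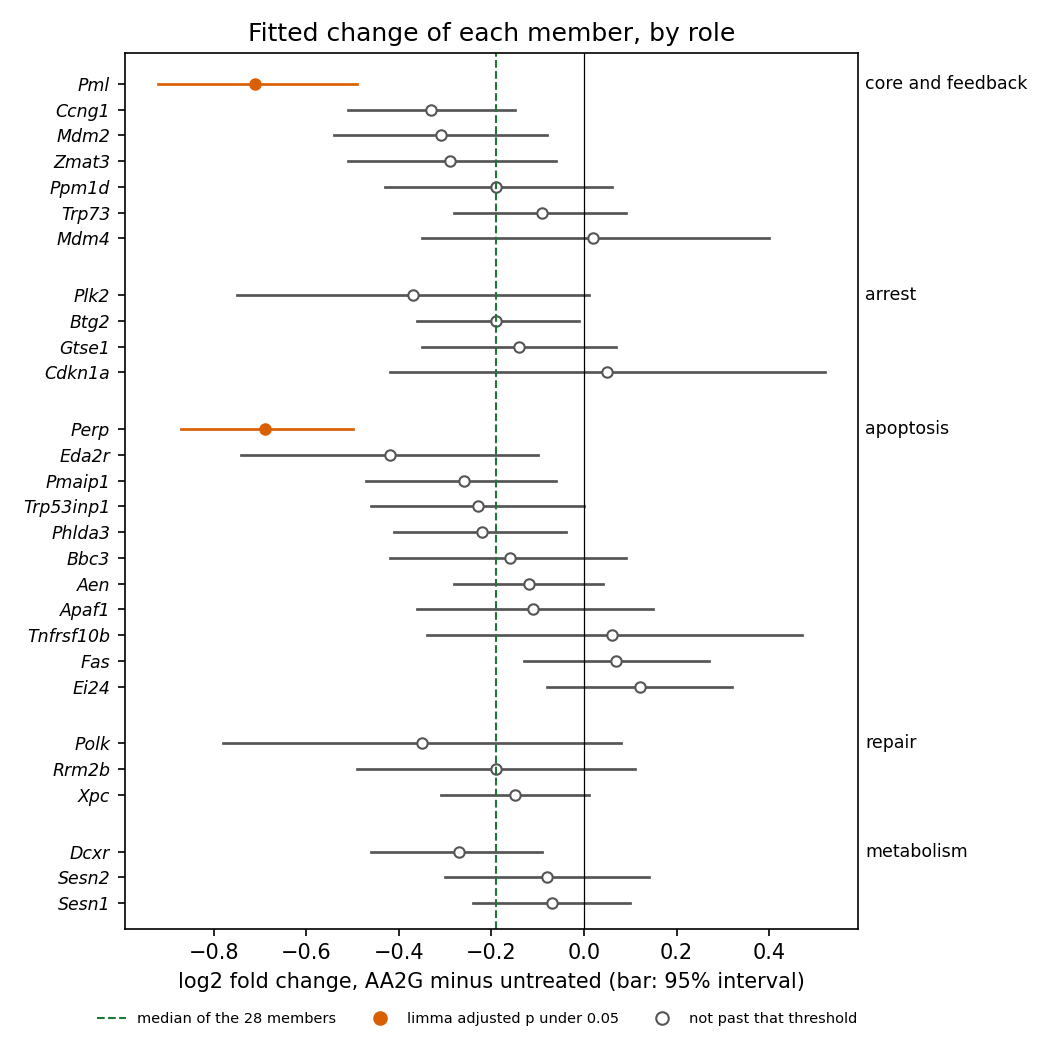
The log2 fold change of each of the 28 measured members is plotted by role (AA2G minus untreated, limma, 3 arrays a group), with its 95% interval as a bar and the members' median of -0.19 as a dashed line. Filled points mark Pml at -0.71 and Perp at -0.69, which passed an adjusted p of 0.05. Open points did not pass, and 5 of them lie right of 0, from 0.02 for Mdm4 to 0.12 for Ei24.

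The table holds log2 values without detection calls. All 28 members but Fas lay above the percentile 40 of mean levels (4.99), and among the features above that level 55.0% were negative, 6.37% had an unadjusted p under 0.05 in the lower direction and 10.9% had all AA2G arrays below all untreated arrays. These background shares are slightly above those over all features and well below those of the members. Of 8 embryonic stem cell markers, 7 lay above the median level of all features, with Nanog at 11.34 ± 0.03 (log2 level, SD, n = 3) in untreated cells and 11.17 ± 0.04 with AA2G. Of these 8, 3 had an unadjusted p under 0.05 in the lower direction (37.5%, against 5.06% of all features) and 0 passed. The 3 were Klf4 at -0.31 ± 0.07 (log2 fold change, SE), Nanog at -0.17 ± 0.07 and Pou5f1 at -0.16 ± 0.07. Of 44 features for markers of trophoblast, primitive endoderm, surface epithelium, fibroblasts and neuroectoderm, 0 passed in limma in either direction. An unadjusted p under 0.05 was reached by 1 upwards and 4 downwards, against 4.66% and 5.06% of all features. For surface epithelium, a cell type rich in Perp, 7 of 8 marker genes were measured, on 9 features. Their summed linear level ran from 1961 to 2386 in untreated arrays and from 1953 to 2198 with AA2G, ranges that overlap. Most of this sum came from Cdh1, Epcam and Cldn4, with untreated log2 levels of 10.09, 8.92 and 8.27. The dim markers of the list, such as Krt14 (4.29) and Trp63, could hardly move the sum, so its overlap does not speak for them. Within that list 4 of 9 features were negative and 5 positive, and the median of all 9 was 0.08. The simple keratin gene Krt18 was at -0.43 ± 0.10 (log2 fold change, SE) and at 0.12 on its second feature, and the adhesion gene Epcam at -0.21 ± 0.09. Cldn4 was at -0.31 ± 0.16 and Krt14 at -0.06. Cdh1 was at 0.17 and 0.08 on its 2 features, and Krt19 at 0.14. The p63 gene Trp63, whose product also drives Perp, had log2 levels of 4.31 ± 0.04 untreated and 4.41 ± 0.05 with AA2G. For primitive endoderm, with all 8 genes measured, the summed linear level ran from 447 to 468 untreated and from 500 to 513 with AA2G, ranges that do not overlap, and the values of its members had both signs. The laminin gene Lama1 had the lowest p, at 0.50 ± 0.09 (log2 fold change, SE, limma adjusted p = 0.0706). Lama1 was also the brightest feature of the list and so weighed most in the sum. Its log2 levels were 7.11 ± 0.16 untreated and 7.61 ± 0.02 with AA2G (SD). The separated sums thus do not show a rise of the list as a whole. Sox7 was at -0.20 ± 0.09, Gata6 at -0.16 ± 0.07 and Dab2 at -0.27 ± 0.13, and 3 of 8 values were negative. For trophoblast (636 to 723 and 643 to 700), fibroblasts (2406 to 2569 and 2550 to 2793) and neuroectoderm (463 to 535 and 493 to 531) the summed ranges overlapped. The fibroblast sum came mostly from Vim, whose features had untreated log2 levels of 10.60 and 8.92. In the trophoblast list 6 of 10 features were positive, and the median of all 10 was 0.04. Its lowest p was that of Krt8, the partner keratin of Krt18, at -0.35 ± 0.07 (log2 fold change, SE, limma adjusted p = 0.0894). The AA2G arrays of Krt8 all lay below the untreated ones, as in Epcam and the first feature of Krt18. Ascl2 was at 0.25 and Krt7 at 0.10. The part of these markers in the values of the members was not tested.

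Of the core and feedback genes, 7 of 8 were measured, 6 had negative values, and the median of all 7 was -0.29. The 1 that fell was Pml (14.3%, against 0.153% of all features called lower). An unadjusted p under 0.05 was reached by 4 in the lower direction (57.1%, against 5.06% of all features) and by 0 in the higher (against 4.66%). The groups did not overlap for 4, all lower with AA2G (57.1%, against 8.48% of all features). The log2 levels of Pml (Entrez Gene 18854) were 9.89, 10.20 and 9.99 in untreated replicates 1, 2 and 3 and 9.30, 9.37 and 9.28 with AA2G. The lowest untreated array thus stood above the highest AA2G array, and the AA2G arrays were close together. The group means were 10.03 ± 0.16 and 9.32 ± 0.05 (SD, n = 3 each), and the log2 fold change was -0.71 ± 0.09 (SE, limma adjusted p = 0.0155). The call of Pml was lost when features without a single symbol were fitted as well (adjusted p = 0.0645), with ordinary variances (0.203) and without untreated replicate 3 (0.0787), AA2G replicate 1 (0.0607), AA2G replicate 2 (0.0580) or AA2G replicate 3 (0.0833), while its value stayed between -0.78 and -0.62 with each array left out.

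Ccng1 encodes cyclin G1, a target of p53 that brings a phosphatase to Mdm2. Its log2 levels were 10.66, 10.56 and 10.45 in untreated arrays and 10.27, 10.20 and 10.21 with AA2G, so the groups did not overlap. The log2 fold change was -0.33 ± 0.08 (SE) and did not pass (limma adjusted p = 0.157, and 0.0415 with a trended robust prior). Mdm2, the ubiquitin ligase that marks p53 for degradation and is itself a target, was at 9.99, 9.71 and 9.83 untreated and at 9.68, 9.42 and 9.49 with AA2G. Every AA2G array of Mdm2 again lay below every untreated array, by a narrow gap, and the log2 fold change was -0.31 ± 0.10 (SE, limma adjusted p = 0.333). Zmat3, an RNA-binding protein that acts on splicing downstream of p53, had levels of 8.27, 8.61 and 8.39 untreated and of 8.07, 8.16 and 8.17 with AA2G. Its groups did not overlap either, and its log2 fold change was -0.29 ± 0.10 (SE, adjusted p = 0.355).

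The remaining 3 measured core genes had overlapping groups. Ppm1d, the Wip1 phosphatase that switches off p53 signalling, was at -0.19 ± 0.11 (log2 fold change, SE, adjusted p = 0.654), and Trp73, a relative of p53, at -0.09 ± 0.08 (adjusted p = 0.779). Mdm4, which binds p53 and blocks its activity, had log2 levels of 10.07, 9.52 and 9.77 untreated and of 10.07, 9.58 and 9.78 with AA2G. Its levels differed between replicate numbers, by 0.54 in untreated arrays, and hardly between the groups. The log2 fold change of Mdm4 was 0.02 with a 95% interval from -0.35 to 0.40 (adjusted p = 0.984), so neither a rise nor a fall of that size can be told from no change.

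The start-site windows of 3 of these genes and of Cdkn1a, the cell cycle inhibitor described further on, are shown as examples from the members that hold a p53 half-site there: Pml fell, Ccng1 and Mdm2 had groups that did not overlap, and Cdkn1a had a value near 0. Perp has no window in the table, and the windows of Eda2r, Phlda3, Btg2 and Dcxr, whose groups did not overlap either, held no match. The half-site was searched on both strands by its standard 10-base consensus. The sequences are from RefSeq on GRCm38.p6, 250 bases before to 50 after the start, 5′ to 3′ along the gene's strand, with half-sites in capitals. The windows are chr9:58249737-58250036 (minus strand) for Pml, chr11:40755237-40755536 (minus) for Ccng1, chr10:117710709-117711008 (minus) for Mdm2 and chr17:29090729-29091028 (plus) for Cdkn1a.
Pml: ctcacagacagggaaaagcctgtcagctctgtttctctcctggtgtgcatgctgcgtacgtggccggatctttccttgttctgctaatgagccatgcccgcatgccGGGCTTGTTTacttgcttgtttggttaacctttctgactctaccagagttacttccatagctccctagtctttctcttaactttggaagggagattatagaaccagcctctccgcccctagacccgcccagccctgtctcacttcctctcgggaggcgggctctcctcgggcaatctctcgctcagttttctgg
Ccng1: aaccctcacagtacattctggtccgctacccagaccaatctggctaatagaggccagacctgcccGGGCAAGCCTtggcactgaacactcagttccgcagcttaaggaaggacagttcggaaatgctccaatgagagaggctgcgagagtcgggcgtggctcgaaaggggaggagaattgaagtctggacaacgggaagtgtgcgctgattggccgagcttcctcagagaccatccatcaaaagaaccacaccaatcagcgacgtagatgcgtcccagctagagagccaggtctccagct
Mdm2: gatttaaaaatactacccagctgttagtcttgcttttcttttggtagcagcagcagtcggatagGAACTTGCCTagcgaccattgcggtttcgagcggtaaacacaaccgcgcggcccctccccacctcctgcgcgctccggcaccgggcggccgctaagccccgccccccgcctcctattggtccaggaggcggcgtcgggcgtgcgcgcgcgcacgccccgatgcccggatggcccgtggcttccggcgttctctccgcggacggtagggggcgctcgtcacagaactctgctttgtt
Cdkn1a: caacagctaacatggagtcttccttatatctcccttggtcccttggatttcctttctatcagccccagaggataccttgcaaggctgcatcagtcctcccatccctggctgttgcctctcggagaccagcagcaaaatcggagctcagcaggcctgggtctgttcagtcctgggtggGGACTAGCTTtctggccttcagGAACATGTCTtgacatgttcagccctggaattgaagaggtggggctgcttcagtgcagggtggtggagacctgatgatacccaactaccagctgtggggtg
The half-site begins at base -144 from the start in Pml, at -185 in Ccng1 and at -186 in Mdm2, and in Cdkn1a there are 2, at -73 and -51, with a spacer of 12 bases. A half-site was found for 10 of 21 measured members with a window in the table (47.6%) and for 9.55% of all 27025 genes, counting any window of a gene. A pair of half-sites with a spacer of up to 13 bases was found for 1 measured member, Cdkn1a, and for 0.074% of all genes. The 10 measured members with a half-site had a median log2 fold change of -0.16, the 11 without one -0.16, and the 7 with no window in the table -0.23. The changes thus had the same median in members with and without this match. Such a match is a stretch of letters and no measured binding, and functional p53 sites often lie in introns or farther upstream.

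Of the genes of cell cycle arrest, 4 of 5 were measured and 0 passed in limma, with 3 negative values. An unadjusted p under 0.05 was reached by 1 in the lower direction (25.0%, against 5.06% of all features) and by 0 in the higher (against 4.66%). Cdkn1a encodes p21, the inhibitor of cyclin-dependent kinases that is the classic arrest target of p53. Its log2 levels were 9.44, 8.77 and 9.24 in untreated replicates 1, 2 and 3 and 9.49, 8.84 and 9.26 with AA2G. The groups overlapped almost entirely, and both were high at number 1 and low at number 2. The log2 fold change of Cdkn1a was 0.05 with a 95% interval from -0.42 to 0.52 (limma adjusted p = 0.971), an interval that also holds the median of the members. With the replicate number as a block in the model, the interval of Cdkn1a was -0.11 to 0.20, which does not hold that median of -0.19. Btg2, an antiproliferative gene that acts in transcript decay, was at 7.58, 7.41 and 7.39 untreated and at 7.27, 7.28 and 7.28 with AA2G. Its groups did not overlap, with a log2 fold change of -0.19 ± 0.08 (SE, adjusted p = 0.480). Plk2, a polo-like kinase induced by stress, was at 7.58, 6.98 and 7.31 untreated and at 7.15, 6.70 and 6.91 with AA2G. The groups of Plk2 overlapped although each AA2G array was lower than the untreated array of the same number, and the log2 fold change was -0.37 ± 0.17 (adjusted p = 0.526), with a value of -0.22 without untreated replicate 1. Gtse1, a mitotic microtubule protein that exports p53 from the nucleus, was at -0.14 ± 0.09 (adjusted p = 0.695).

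Of the apoptosis genes, 11 of 12 were measured, 8 had negative values and the median of all 11 was -0.16. The 1 that fell was Perp (9.09%, against 0.153% of all features called lower). The unadjusted p was under 0.05 for 4 in the lower direction (36.4%, against 5.06% of all features) and 0 in the higher (against 4.66%). For 6 the AA2G arrays all lay below the untreated ones (54.5%, against 8.48% of all features). Perp (Entrez Gene 64058) had log2 levels of 7.13, 7.29 and 7.16 untreated and of 6.42, 6.56 and 6.54 with AA2G. The groups were separated by a gap wider than the spread within either of them. The means were 7.19 ± 0.09 and 6.51 ± 0.08 (SD, n = 3 each), and the log2 fold change was -0.69 ± 0.08 (SE, limma adjusted p = 0.00851). Perp no longer passed with ordinary variances (adjusted p = 0.148) or without untreated replicate 3 (0.0530), with the value between -0.72 and -0.64 when each array was left out.

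The other apoptosis genes whose groups did not overlap were Eda2r, Pmaip1, Phlda3, Trp53inp1 and Aen, and none of these 5 passed in limma. Eda2r, the receptor for ectodysplasin A2, had log2 levels of 8.38, 8.01 and 7.97 untreated and of 7.93, 7.56 and 7.60 with AA2G. The AA2G values of Eda2r at number 1 and the untreated values at numbers 2 and 3 nearly met, and the log2 fold change was -0.42 ± 0.14 (SE, adjusted p = 0.335). Pmaip1 encodes Noxa, a BH3-only protein that binds survival proteins of the Bcl2 family. Its levels were 7.53, 7.66 and 7.45 untreated and 7.40, 7.18 and 7.27 with AA2G, with a log2 fold change of -0.26 ± 0.09 (SE, adjusted p = 0.357). Phlda3, which restrains the survival kinase Akt, was at 7.83, 7.90 and 8.00 untreated and at 7.73, 7.61 and 7.73 with AA2G, with a log2 fold change of -0.22 ± 0.08 (SE, adjusted p = 0.378). For both genes the highest AA2G array lay just under the lowest untreated array. Trp53inp1, a nuclear protein that promotes death and autophagy, was at 9.98, 9.62 and 9.70 untreated and at 9.56, 9.54 and 9.51 with AA2G. Its AA2G arrays were nearly equal, and the log2 fold change of -0.23 ± 0.10 (SE, adjusted p = 0.518) was -0.12 without untreated replicate 1. Aen, an apoptosis nuclease, was at 7.77, 7.89 and 7.80 untreated and at 7.70, 7.71 and 7.69 with AA2G, with a log2 fold change of -0.12 ± 0.07 (SE, adjusted p = 0.667).

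The other 5 apoptosis genes had overlapping groups. Bbc3, which encodes Puma, a BH3-only activator of mitochondrial death, was at -0.16 ± 0.11 (log2 fold change, SE, adjusted p = 0.711), and at -0.06 without untreated replicate 1 and -0.27 without untreated replicate 2. Apaf1, the scaffold of the apoptosome, was at -0.11 ± 0.11 (adjusted p = 0.829). Ei24, a membrane protein of the endoplasmic reticulum that was first found as a p53-induced gene, had the highest value of the members, at 0.12 ± 0.09 (adjusted p = 0.729). Tnfrsf10b, the death receptor for TRAIL, was at 8.55, 8.03 and 8.34 untreated and at 8.67, 8.06 and 8.38 with AA2G. Like Cdkn1a, it was high at number 1 and low at number 2 in both groups, and its log2 fold change was 0.06 with a 95% interval from -0.34 to 0.47 (adjusted p = 0.951). The death receptor gene Fas had a log2 level of 3.94 ± 0.01 untreated and 4.01 ± 0.14 with AA2G (SD, n = 3) and a log2 fold change of 0.07 ± 0.09 (SE, adjusted p = 0.867). Its feature stood at percentile 21.2 of the mean levels, and without detection calls it is not known whether that is above background.

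Of the repair genes, 3 of 4 were measured, 0 passed in limma and 0 were past an unadjusted p of 0.05 in either direction, although all 3 values were negative. Xpc, the damage sensor of nucleotide excision repair, was at 7.55, 7.60 and 7.46 untreated and at 7.40, 7.40 and 7.37 with AA2G. Its groups did not overlap, with a log2 fold change of -0.15 ± 0.07 (SE, adjusted p = 0.558). Polk, a DNA polymerase that copies past lesions, was at -0.35 ± 0.19 (adjusted p = 0.616). Its untreated replicate 1 stood apart at 7.42, against 6.74 and 6.81 in the other untreated arrays and 6.83, 6.41 and 6.68 with AA2G, and without that array the log2 fold change of Polk was -0.13. Rrm2b, a ribonucleotide reductase subunit that supplies nucleotides for repair, was at -0.19 ± 0.13 (adjusted p = 0.722), and at -0.07 without untreated replicate 1 and -0.09 without AA2G replicate 2.

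All 3 metabolism genes were measured, and 0 passed in limma. The unadjusted p was under 0.05 for 1 in the lower direction (33.3%, against 5.06% of all features) and 0 in the higher (against 4.66%). Dcxr, a reductase of dicarbonyls and L-xylulose, was at 6.55, 6.38 and 6.55 untreated and at 6.27, 6.21 and 6.17 with AA2G. The groups of Dcxr did not overlap, and the log2 fold change was -0.27 ± 0.08 (SE, limma adjusted p = 0.251). The sestrins restrain the growth kinase mTORC1 when nutrients are short or oxidants rise. Sesn1 was at -0.07 ± 0.08 and Sesn2 at -0.08 ± 0.09 (log2 fold change, SE), with adjusted p of 0.843 and 0.855.

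**Figure D2:**
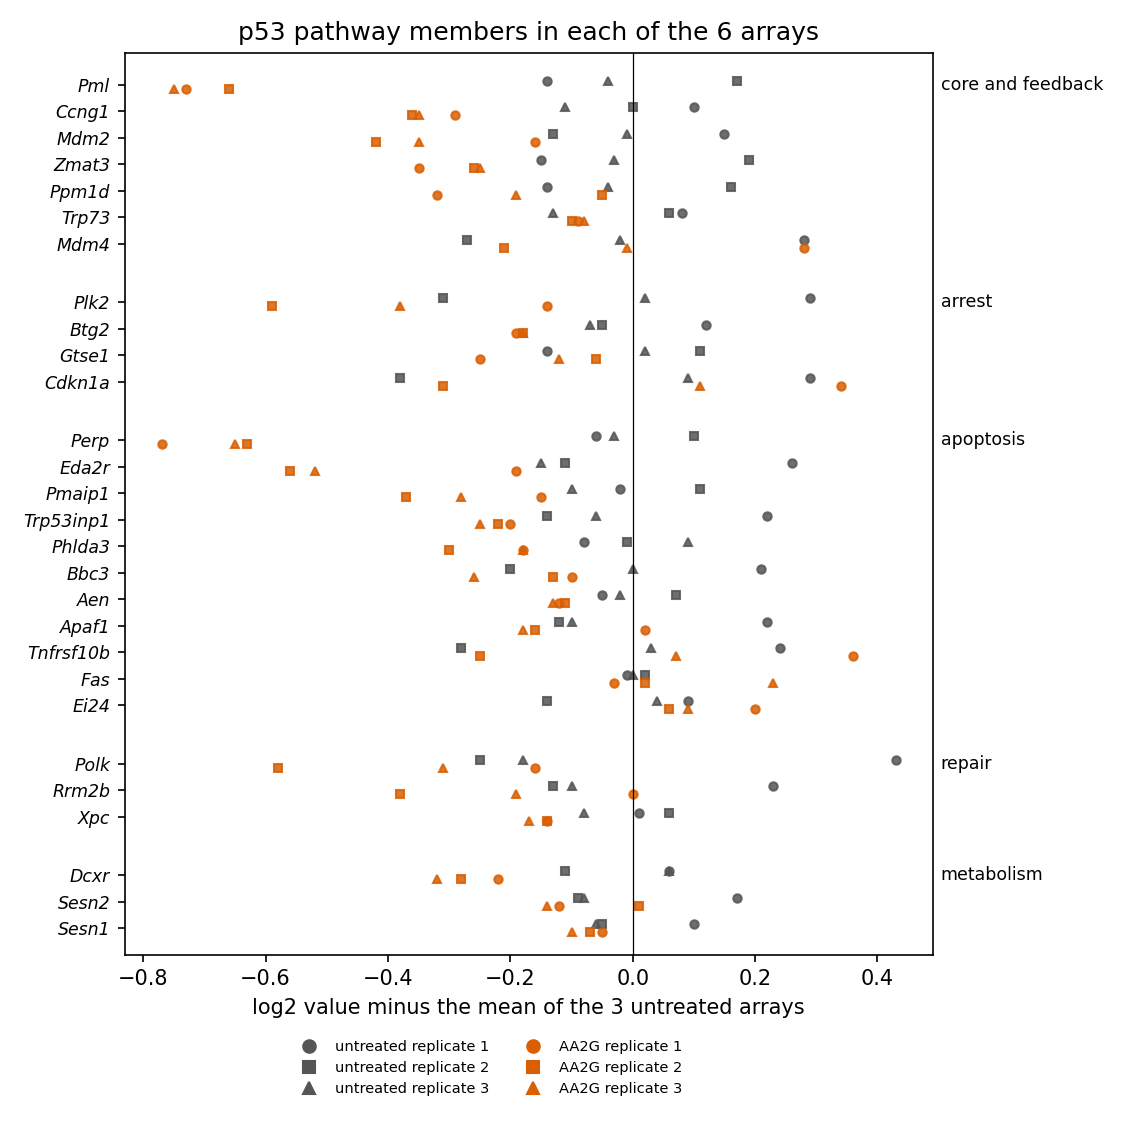
Each array's log2 value of a member is plotted minus the mean of that member's 3 untreated arrays, with grey for untreated and orange for AA2G and a marker for each replicate number. For Pml and Perp, with log2 fold changes of -0.71 and -0.69, the orange points form a group of their own at the left. For 13 members all orange points lie left of all grey points.

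The change was also taken at each replicate number, as AA2G minus the untreated array of the same number. The labels number both groups from 1 to 3 without saying that equal numbers were grown or processed together, so these differences are a description. At number 1, 25 of 28 members were lower with AA2G, at number 2 21 and at number 3 22, where 52.1%, 52.6% and 51.6% of all features were lower. The median change of the members was -0.20, -0.17 and -0.13 at the 3 numbers, and -0.01 at each for all features. AA2G was lower at each of the 3 numbers for 20 members (71.4%, against 20.0% of all features and 25.5% of the brighter ones). It was higher at each for 3 members, Ei24, Tnfrsf10b and Cdkn1a, against 16.0% of all features. In the related lists described further on, the share lower at each number was 72.2% for Pml body partners and 51.4% for further p53 targets. It was 33.3% for desmosome genes, 29.4% for upstream regulators and 27.3% for the apoptosis machinery. Among markers it was 62.5% for embryonic stem cells and from 0.0% to 37.5% for the other cell types. A high share was thus not particular to the members.

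For Pml the changes were -0.58, -0.83 and -0.71 at numbers 1, 2 and 3, and for Perp -0.71, -0.73 and -0.62. The change was thus of like size at every number for Perp and varied more for Pml. Eda2r changed by -0.45, -0.44 and -0.38 and Mdm2 by -0.30, -0.29 and -0.34, both with less spread across numbers than between the arrays of a group. Plk2 changed by -0.43, -0.27 and -0.41. Polk was less even, at -0.59, -0.33 and -0.13, and Trp53inp1 at -0.42, -0.08 and -0.19. Cdkn1a, by contrast, was at 0.05, 0.07 and 0.02 and Tnfrsf10b at 0.12, 0.02 and 0.04, all small beside ranges of 0.67 and 0.51 among their untreated arrays.

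Cdkn1a, Mdm4, Tnfrsf10b, Plk2, Mdm2, Polk, Rrm2b and Ei24 were highest at number 1 and lowest at number 2 in both groups. This pattern was found in 8 of 28 members (28.6%) and in 7.73% of all features and 11.0% of the brighter ones. The order of the 3 numbers was the same in both groups for 13 members (46.4%), against 25.3% of all features and 31.2% of the brighter ones. In the related lists, the high and low pattern was found in 25.7% of further p53 targets and in 11.8% to 16.7% of the other lists. The order was the same in 66.7% of Pml body partners, 51.4% of further p53 targets and 26.7% to 41.2% of the other lists. Neither trait was thus particular to the members.

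**Figure D3:**
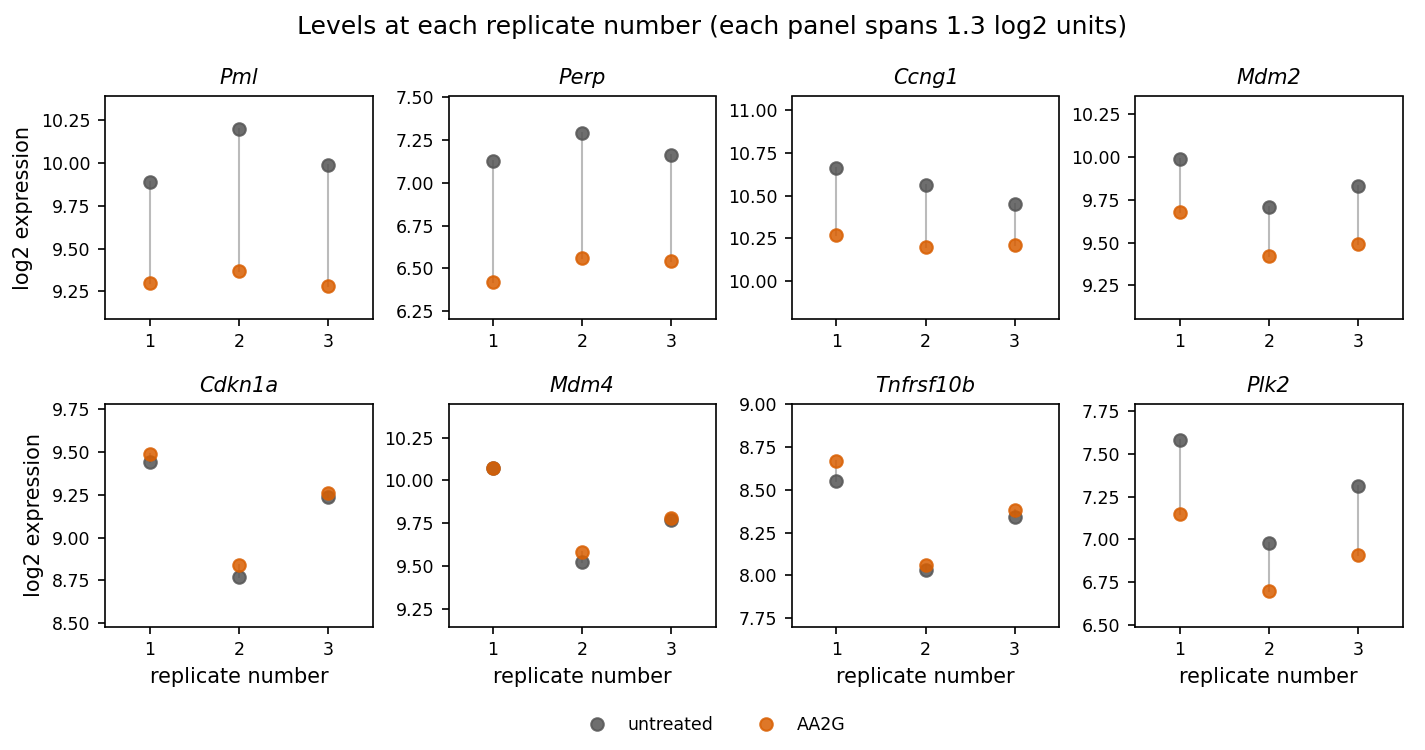
The log2 level of 8 members is plotted at replicate numbers 1, 2 and 3, with grey points for untreated and orange points for AA2G arrays and a line joining arrays of the same number. In Pml, Perp, Ccng1, Mdm2 and Plk2 the orange point is the lower at each number. In Cdkn1a, Mdm4 and Tnfrsf10b the points of both groups nearly coincide, while the level moves between numbers by up to 0.67 in untreated arrays.

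A further 5 lists of genes around the pathway held 0 features past the limma threshold, of 135 features. An unadjusted p under 0.05 was reached by 5 upwards and 11 downwards. Of all features, 4.66% reached it upwards and 5.06% downwards. Of 41 further p53 targets, 34 were measured on 35 features. Negative values were found for 25 of these, and the median of all 35 was -0.09. The unadjusted p was under 0.05 for 7 downwards (20.0%, against 5.06% of all features) and 2 upwards. The lowest p were those of Cpt1c, a brain-type relative of the carnitine palmitoyltransferases, at -0.34 ± 0.07 (log2 fold change, SE, limma adjusted p = 0.104), of the kinase gene Dyrk3 at -0.33 ± 0.08 (adjusted p = 0.171) and of the spindle gene Psrc1 at -0.25 ± 0.07 (adjusted p = 0.218). Cpt1c passed with a trended robust prior (0.0413), with array weights (0.0418) and among brighter features only (0.0458). The median of these further targets lay between those of the members and of all features.

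Of 36 upstream regulators of p53, 33 were measured on 34 features, with 20 negative values and a median of -0.02. An unadjusted p under 0.05 was reached by 1 upwards and 1 downwards (2.94%, against 5.06% of all features). These were Ppp1r13b, which encodes the p53 cofactor ASPP1, at -0.36 ± 0.11 (log2 fold change, SE, limma adjusted p = 0.269) and Trp53bp1, which marks double-strand breaks, at 0.25 ± 0.09 (adjusted p = 0.364). The kinase gene Hipk2, which phosphorylates p53, was next at -0.23 ± 0.11 (adjusted p = 0.551). Of the values of this list 58.8% were negative, against 52.3% of all features.

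Of 30 genes of the apoptosis machinery, 27 were measured on 33 features, with 20 negative values and a median of -0.02. The unadjusted p was under 0.05 for 3 downwards (9.09%, against 5.06% of all features) and 2 upwards. The caspase-8 inhibitor gene Cflar was at -0.27 ± 0.08 (log2 fold change, SE, limma adjusted p = 0.275), the caspase gene Casp8 at 0.26 ± 0.09 (adjusted p = 0.356) and Bcl2l11, which encodes the BH3-only protein Bim, at -0.22 ± 0.08 (adjusted p = 0.438).

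Beside Pml, 13 of 15 genes for partners of its nuclear bodies were measured, on 18 features. Of these values 16 were negative, the median of all 18 was -0.07, and 0 were past an unadjusted p of 0.05. Hipk2, which is also in this list, was followed by the histone chaperone gene Daxx at -0.17 ± 0.08 (log2 fold change, SE, adjusted p = 0.568) and Trim27 at -0.11 ± 0.07 (adjusted p = 0.696). Beside Perp, all 14 desmosome genes were measured on 15 features, with 9 negative values, a median of -0.02 and 0 past an unadjusted p of 0.05. The plakoglobin gene Jup was at -0.13 ± 0.07 (adjusted p = 0.650), Dsc2 at -0.28 ± 0.17 (adjusted p = 0.671) and Dsg2 at -0.08 ± 0.07 (adjusted p = 0.784) and, on its second feature, -0.09. None of these genes reached the size of the change of Pml or Perp.

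**Figure D4:**
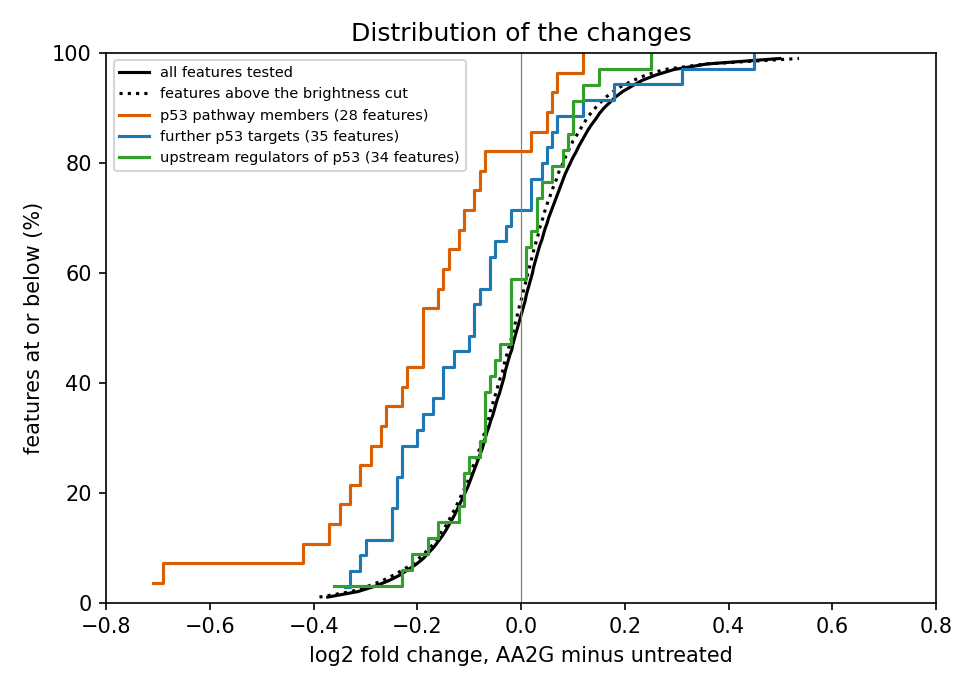
The share of features at or below each log2 fold change (AA2G minus untreated) is plotted for the 28 members, 35 features of further p53 targets, 34 features of upstream regulators, all features tested and the features above the brightness level of 4.99. The members' curve lies left of the others, with a median of -0.19, the further targets follow at -0.09, and the upstream regulators have a median of -0.02, near the -0.01 of all features.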

How the data were processed

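Total RNA from 6 cultures was measured on arrays, 1 per culture. The deposited values are log2 expression per transcript cluster, made by the authors with RMA (Affymetrix Expression Console), as the submitters' processing notes say; versions, filters and genome build were not given in the sources used here. RMA equalises the distributions of the arrays, so a change in total RNA is not seen, and it understates fold changes of dim features. Values ran from 1.2 to 13.2, with array medians from 5.06 to 5.10. Precision is limited by how many arrays there are.

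Of 41345 features, the 23521 with exactly 1 symbol in the platform annotation were tested; 1814 carry several and 16010 none. The Entrez Gene identifiers of all 28 measured members matched their symbols in RefSeq GRCm38.p6. AA2G was compared with untreated cells in limma 3.58.1 (R 4.3.3; lmFit, eBayes at its default prior; two-sided; without covariates), with Benjamini-Hochberg adjustment over all 23521 features and a threshold of 0.05. The procedure was tested on simulated data. It recovered 40.3% of simulated log2 changes of 0.5 and 84.3% of those of 1.0, with 4.5% false among the calls. The members other than Pml and Perp had values from -0.42 to 0.12, so their not passing does not show that they were unchanged. Intervals are 95% intervals of the model. With 3 arrays a group an exact permutation test cannot reach that threshold, so none was run.

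The members, roles, related lists and tests were chosen with earlier results of these data known. All members are named, and values of every array are given where the groups did not overlap or the unadjusted p was under 0.05, besides Cdkn1a, Mdm4, Tnfrsf10b, Plk2 and Polk, chosen after their values were seen. Of each related list the 3 features with the lowest p are named. Alternatives were repeated quantile normalization, a common median, a trended robust prior, array weights, a replicate block, brighter features (mean above 4.99), all features, 1 feature per gene, ordinary variances and leaving out each array.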

Additional observations from a re-analysis of the deposited data

How the results depend on the processing

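Of 419 values of the 28 members under 15 alternatives, 401 kept their direction and their side of the threshold, 8 lost and 1 gained a call, and 9 turned sign. The lost calls are those of Pml and Perp and the gained one that of Ccng1, given above. The members had 2 calls lower, 1 in the fit of all features, 0 with ordinary variances and from 0 to 2 with each array left out; they had 0 higher in every fit run. Their median of -0.19 ranged from -0.20 to -0.14 with each array left out, the latter without untreated replicate 1, and the count of negative values from 21 to 26. Every sign change came with an array left out, and none of these values passed: Cdkn1a ranged from -0.14 to 0.23, Mdm4 from -0.11 to 0.16, Tnfrsf10b from -0.09 to 0.22, Fas from -0.01 to 0.12, Apaf1 from -0.17 to 0.00 and Sesn2 from -0.13 to 0.01. Without a change of sign, leaving out an array moved these other values without a call most relative to their size, to between -0.36 and -0.19 for Zmat3, -0.25 and -0.10 for Ppm1d, -0.16 and -0.06 for Trp73, -0.21 and -0.09 for Gtse1, -0.53 and -0.22 for Plk2, -0.30 and -0.12 for Trp53inp1, -0.27 and -0.06 for Bbc3, 0.06 and 0.17 for Ei24, -0.48 and -0.13 for Polk, -0.28 and -0.07 for Rrm2b and -0.10 and -0.02 for Sesn1. Over all features, 143 were called higher and 36 lower. These counts were 303 and 193 with array weights, 198 and 79 with a trended robust prior, 165 and 86 among brighter features, 111 and 20 in the fit of all features, 9 and 4 with ordinary variances, and from 58 to 115 and from 6 to 17 with each array left out. Among further p53 targets, 1 feature was called with array weights, with the trended robust prior and among brighter features; the cause was not tested.

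Deviations of equally numbered arrays from their group means correlated over features at 0.231, 0.224 and 0.017 for numbers 1, 2 and 3. Between number 1 of a group and number 2 of the other the correlation was -0.222. Each array correlated best with its own number, for number 3 by a small margin (0.017, against -0.001 with number 2 of the other group). Deviations from a group mean cancel out within the group, so these correlations depend on each other. The negative value is thus no separate sign of pairing. The main fit has no block because the labels do not say that equal numbers belong together. A difference shared by equal numbers thus stays in its error. With the replicate number as a block, 130 features were higher and 25 lower, and the 2 members called were again Pml (adjusted p = 0.0381) and Perp (0.0315). At an unadjusted p under 0.05, 15 members were then lower and 0 higher, against 6.73% of all features lower. The 95% interval narrowed to -0.11 to 0.20 for Cdkn1a and to -0.14 to 0.18 for Mdm4. Neither of these intervals holds the members' median of -0.19. No other call of a member changed with the block.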
